A study of Mus musculus with 9 samples.

Results

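The macrophage scavenger receptors described here are 9 mouse genes, Mrc1, Msr1, Stab1, Cd163, Marco, Timd4, Lyve1, Folr2 and Scarb1, taken by symbol from the 54409 features of the count table that were paired with one, out of 56398 features in all. All 9 were found. They were chosen with their values in these samples known, so their own levels and fold changes are given as a description, with no p-value. RNA sequencing covered 9 samples of the BALB/c strain in 3 groups of 3. The AC group held colon tumours of mice injected with CT26 cells, a colon carcinoma line of BALB/c origin, and given Astragalus and Curcuma phaeocaulis (2:1) at 6 g/kg once a day. The model group held colon tumours of mice injected with the same cells and given saline once a day, also labelled 6 g/kg. The sham group held healthy colon. CT26 is 1 cell line. The labels do not give the site of injection, the age of the mice, the number of days of treatment, or whether each sample is from another mouse. The p-values therefore rest on how far the samples differ, which could be technical.

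Scavenger receptors are surface proteins with which macrophages, and some endothelial cells, bind and take up modified lipoproteins, glycoproteins, haemoglobin complexes, dying cells and microbes. The family is defined by what its members do and not by descent, so the genes belong to several protein classes. Mrc1, Stab1, Cd163, Lyve1, Folr2 and Timd4 are widely used as markers of tissue-resident or alternatively activated macrophages, Msr1 and Marco are the classical class A receptors, and Scarb1 is the receptor for high-density lipoprotein. In tumours such receptors are commonly read as markers of tumour-associated macrophages.

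Total counts per library were 15690038 to 23476056, and 24356 to 27784 features were detected. Levels are counts scaled to library size (CPM) after TMM scaling over the 9 libraries unless FPKM, which is also divided by gene length, is named. The expected colon transcripts were present in colon: Epcam, an epithelial adhesion molecule, was at 2809 to 2955 CPM in the sham libraries. In the tumours it was at 67.6 CPM in AC 3 and 35.6 CPM in model 1, and at most 0.95 CPM in the other 4. Those 2 tumours therefore stood apart in colonic epithelial transcripts, and the fold changes of the members between AC and model tumours are also given without them. In colon, sham 1 stood apart. It held 308 CPM of the B cell transcript Ms4a1, against 30.8 and 13.1 CPM in sham 2 and sham 3, and 45.4 CPM of the smooth muscle transcript Myh11, against 486 and 541 CPM. The other colon libraries differed from each other by a chi-square per degree of freedom of 3.06, and the pairs with sham 1 by up to 119.

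Promoter sequence is shown for 3 members that span the pattern found: Mrc1, the member with the highest level in tumours, Cd163, one of those that varied most between tumours, and Timd4, which was not higher in tumours than in the whole set of colon libraries. RefSeq's promoter table for GRCm38.p6 held 7 windows for 6 members (Mrc1, Stab1, Cd163, Marco, Folr2 and Timd4), each running from 250 bases before a start to 50 after it. The windows below run 5′ to 3′ on the strand of the gene, and capitals mark matches to the motifs searched. The Mrc1 window is chr2:14229164-14229463 on the plus strand, the Cd163 window chr6:124304401-124304700 on the plus strand, and the Timd4 window chr11:46810549-46810848 on the plus strand.
Mrc1: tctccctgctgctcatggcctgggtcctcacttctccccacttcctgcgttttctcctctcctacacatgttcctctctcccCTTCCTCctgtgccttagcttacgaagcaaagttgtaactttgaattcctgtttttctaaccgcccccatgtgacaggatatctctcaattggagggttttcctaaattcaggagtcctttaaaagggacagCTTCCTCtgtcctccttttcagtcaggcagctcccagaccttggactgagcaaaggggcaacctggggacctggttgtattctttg
Cd163: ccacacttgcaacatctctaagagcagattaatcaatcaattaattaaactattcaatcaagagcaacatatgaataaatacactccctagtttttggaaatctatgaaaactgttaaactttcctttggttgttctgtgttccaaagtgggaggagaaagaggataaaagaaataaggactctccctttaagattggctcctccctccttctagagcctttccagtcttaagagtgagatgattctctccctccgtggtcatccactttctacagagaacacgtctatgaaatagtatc
Timd4: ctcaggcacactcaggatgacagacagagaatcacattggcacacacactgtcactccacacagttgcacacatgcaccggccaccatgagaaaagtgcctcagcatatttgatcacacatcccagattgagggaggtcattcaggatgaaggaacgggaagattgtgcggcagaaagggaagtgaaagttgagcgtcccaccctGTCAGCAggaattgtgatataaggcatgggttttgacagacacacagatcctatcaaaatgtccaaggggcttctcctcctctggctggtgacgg

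The motifs were GAGGAAG for PU.1, a transcription factor that myeloid cells require, TGCTGAC for a short MAF site, CACGTG for an E-box and TGACTCA for AP-1, each searched on both strands. Mrc1 held the PU.1 letters at 2 places, both as the reverse complement, and Marco held them once. Over all 32851 promoter windows in the table, 13.6% held them, so 2 of 7 member windows is a description only. Timd4 held the MAF letters, as the reverse complement, which 4.67% of all windows hold. One of the 2 Folr2 windows held the AP-1 letters, found in 5.2% of all windows. None of the 7 windows held the E-box, found in 7.15% of all windows, and neither the Stab1 nor the Cd163 window held any of the 4 motifs.

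Mrc1 was the leading receptor of the tumours by level per gene length, and Marco the lowest in every group. In AC tumours the mean FPKM ran from Mrc1 (72.5 ± 27.0 FPKM, SD, n = 3) through Msr1 (29.97 ± 5.69), Stab1 (27.2 ± 7.63), Lyve1 (19.95 ± 10.7), Cd163 (8.51 ± 3.13), Scarb1 (7.83 ± 0.551), Folr2 (4.50 ± 1.74) and Timd4 (0.715 ± 0.220) to Marco (0.127 ± 0.1002). The individual libraries of neighbours in that order overlapped from Msr1 to Scarb1, and did not overlap between Mrc1 and Msr1, Scarb1 and Folr2, Folr2 and Timd4, or Timd4 and Marco. In model tumours the order was Mrc1 (47.2 ± 18.7 FPKM), Msr1 (27.4 ± 4.25), Stab1 (16.5 ± 2.80), Scarb1 (7.88 ± 0.738), Lyve1 (5.66 ± 4.94), Cd163 (4.38 ± 3.57), Folr2 (2.51 ± 0.626), Timd4 (0.856 ± 0.0232) and Marco (0.291 ± 0.0936). Mrc1 and Msr1 overlapped there, as did the neighbours from Scarb1 to Folr2. Colon had another order, headed by Timd4 (1.83 ± 2.75 FPKM), whose mean rests on sham 1, and followed by Scarb1 (0.891 ± 0.194), Lyve1 (0.879 ± 0.283), Mrc1 (0.622 ± 0.0796), Msr1 (0.534 ± 0.0498), Stab1 (0.316 ± 0.0307), Cd163 (0.0796 ± 0.0425), Folr2 (0.0684 ± 0.0652) and Marco (0.0209 ± 0.0181). Colon neighbours did not overlap between Msr1 and Stab1 or between Stab1 and Cd163, and overlapped elsewhere. Lyve1 ranked above Scarb1 in AC tumours and below it in model tumours and colon.

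**Figure D1:**
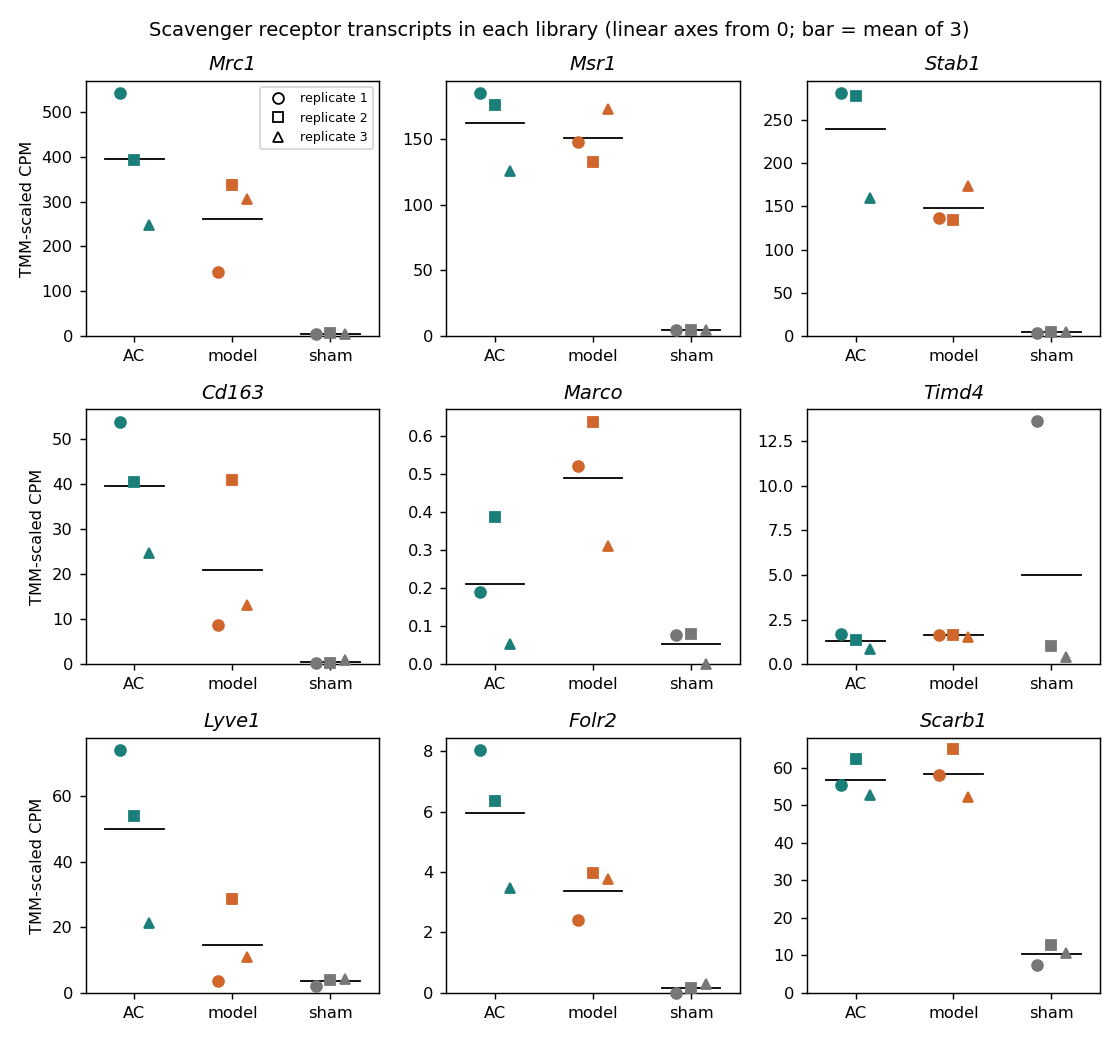
Level of each receptor in TMM-scaled CPM on linear axes from 0, in AC tumours, model tumours and sham colon, with 1 symbol per library (circle, square and triangle for replicates 1, 2 and 3) and a bar for the mean of 3. Mrc1, Msr1, Stab1, Cd163, Folr2 and Scarb1 lay higher in all 6 tumours than in the 3 colon libraries, AC and model tumours overlapped for every receptor, and Timd4 was highest in sham 1 at 13.6 CPM.

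The mannose receptor Mrc1 (CD206; chromosome 2, 14229392 to 14332057, GRCm38), a C-type lectin that clears mannose-ended glycoproteins, measured 543, 394 and 249 CPM in AC tumours 1 to 3. It measured 143, 338 and 305.0 CPM in model tumours 1 to 3, and 4.67, 6.25 and 5.10 CPM in the colon libraries. All 6 tumours lay far above colon, and the tumour groups overlapped: AC 3 was below model 2 and model 3. The fitted log2 difference was 0.59 (SE 0.43) for AC against model tumours, 5.62 (SE 0.372), or 49.2-fold, for model tumours against colon, and 6.21 (SE 0.346), or 73.8-fold, for AC tumours against colon.

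Of the class A receptors, Msr1 (chromosome 8, 39581685 to 39642673), which binds modified low-density lipoprotein and other polyanions, varied little between tumours. It measured 185, 176 and 126 CPM in AC tumours, 148, 133 and 174 CPM in model tumours, and 4.67, 4.57 and 4.39 CPM in colon. The highest and the lowest tumour were both AC libraries and differed 1.47-fold, and the model libraries lay between them. For Msr1 the log2 difference was 0.10 (SE 0.153) for AC against model tumours, 5.07 (SE 0.166) for model tumours against colon and 5.16 (SE 0.193) for AC tumours against colon. Marco (chromosome 1, 120474538 to 120505024), a class A receptor for bacteria and particles that is best known from alveolar and splenic marginal zone macrophages, was close to undetected. It had 4, 7 and 1 counts in AC tumours, 14, 14 and 6 counts in model tumours, and 1, 1 and 0 counts in colon, where 3 counts correspond to 0.212 to 0.240 CPM. It did not pass the filter on low counts in any of the 3 comparisons. With no filter, by DESeq2, and with model 3, sham 1, sham 2 or sham 3 left out, it was tested in model tumours against colon and was called higher each time. In AC tumours against colon it was tested with no filter and by DESeq2 and was not called. The ratio of its summed counts, scaled for depth, was 0.414 for AC against model tumours (95% interval 0.195 to 0.819), 9.84 for model tumours against colon (2.52 to 84.6) and 4.07 for AC tumours against colon (0.906 to 37.4), where the intervals cover counting error only.

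Cd163 (chromosome 6, 124304656 to 124330527), the macrophage receptor for haemoglobin bound to haptoglobin, measured 54.0, 40.5 and 24.7 CPM in AC tumours. Model tumours had 8.78, 40.9 and 13.3 CPM, and colon 0.389, 0.401 and 0.991 CPM from at most 14 counts per library. Model 2 held as much as AC 2, while model 1 and model 3 were below every AC tumour. With no library left out, the log2 difference was 0.92 (SE 0.684) for AC against model tumours, 5.12 (SE 0.768) for model tumours against colon and 6.03 (SE 0.485) for AC tumours against colon. Without model 2, the difference between AC and model tumours was 1.85 and that between model tumours and colon was 4.24.

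Stab1 and Lyve1 are made both by macrophages and by endothelium. Stab1 (chromosome 14, 31139013 to 31168641), stabilin-1, which takes up acetylated lipoprotein and the matrix protein SPARC, measured 281, 278 and 160.0 CPM in AC tumours, 136.0, 134 and 174 CPM in model tumours, and 3.89, 4.17 and 5.10 CPM in colon. AC 1 and AC 2 were above every model tumour, and AC 3 lay below model 3 and above the other 2. For Stab1 it came to a log2 difference of 0.69 (SE 0.222) for AC against model tumours, 5.09 (SE 0.178) for model tumours against colon and 5.77 (SE 0.275) for AC tumours against colon. Its span overlaps that of Nt5dc2, which lies on the opposite strand and had 533 counts over all libraries. Whether the counting used strand is not given in the sources used here, so reads of the pair may be mixed.

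Lyve1 (chromosome 7, 110850607 to 110863239), a hyaluronan receptor known from lymphatic endothelium and from a subset of perivascular macrophages, varied more between tumours than the other members past the filter. It measured 74.1, 54.0 and 21.4 CPM in AC tumours, 3.68, 28.7 and 11.1 CPM in model tumours, and 2.02, 4.09 and 4.39 CPM in colon. Model 1 was inside the range of colon, and the highest and the lowest tumour differed 20.1-fold. Its log2 difference was 1.78 (SE 0.905) for AC against model tumours, 2.06 (SE 0.730) for model tumours against colon and 3.83 (SE 0.527) for AC tumours against colon. Without model 2 the difference was 2.76 for AC against model tumours and 1.12 for model tumours against colon. Of 5 lymphatic endothelial transcripts tested, 3 fell in both tumour groups against colon, Pdpn rose in both and Flt4 rose in model tumours. One of those that fell, Prox1, the transcription factor that sets lymphatic identity, averaged 0.0884 ± 0.109 CPM in AC tumours, 0.0793 ± 0.0960 CPM in model tumours and 3.68 ± 1.00 CPM in colon (SD, n = 3 each). Ccl21a had no count in any library, colon included, and so tells nothing about lymphatic content here.

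Folr2 (chromosome 7, 101839988 to 101857194), the folate receptor beta of macrophages, was a low-level member that followed the same broad order. It measured 8.03, 6.36 and 3.46 CPM in AC tumours, 2.42, 3.96 and 3.78 CPM in model tumours, and 0, 0.160 and 0.283 CPM in colon, where the 3 libraries had 0, 2 and 4 counts. AC 1 and AC 2 were above every model tumour, and AC 3 was below model 2 and model 3. Its log2 difference was 0.81 (SE 0.334) for AC against model tumours, 4.44 (SE 0.671) for model tumours against colon and 5.24 (SE 0.744) for AC tumours against colon. The ratio of summed counts, scaled for depth, was 1.82 (95% interval 1.54 to 2.16), 21.7 (9.82 to 59.8) and 39.6 (18.0 to 109) in these comparisons. Without sham 1, which had no count of it, the log2 difference was 3.90 for model tumours against colon and 4.62 for AC tumours against colon. Without sham 3, which had 4 counts, it was 5.24 for model tumours against colon and 6.08 for AC tumours against colon. Its span overlaps that of Gm10602 on the opposite strand, with 289 counts over all libraries beside 350, 225 and 6 counts of Folr2 in AC tumours, model tumours and colon. Mixed reads could therefore take a larger part of its values than of those of Stab1.

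Scarb1 (chromosome 5, 125277087 to 125341094), the receptor that takes up cholesteryl esters from high-density lipoprotein and is also made by cells other than macrophages, was nearly level across tumours. It measured 55.6, 62.3 and 52.9 CPM in AC tumours, 58.0, 65.1 and 52.2 CPM in model tumours, and 7.46, 12.7 and 10.6 CPM in colon. The 6 tumours differed at most 1.25-fold, and all lay above colon. Its span overlaps that of Gm42633 on the same strand, with 53 counts over all libraries. The log2 difference was -0.04 (SE 0.110) for AC against model tumours, 2.53 (SE 0.223) for model tumours against colon and 2.48 (SE 0.211) for AC tumours against colon.

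Timd4 (chromosome 11, 46810800 to 46844332) encodes TIM-4, a phosphatidylserine receptor with which resident macrophages bind dying cells. It measured 1.71, 1.38 and 0.892 CPM in AC tumours, 1.67, 1.64 and 1.56 CPM in model tumours, and 13.6, 1.04 and 0.425 CPM in colon. Sham 1 was 18.6-fold above the mean of the other colon libraries, of which sham 2 lay below 5 of the 6 tumours and sham 3 below all 6. The log2 difference was -0.29 (SE 0.311) for AC against model tumours, -1.65 (SE 1.17) for model tumours against colon and -1.96 (SE 1.22) for AC tumours against colon. Without sham 1 the direction turned, to 1.20 for model tumours against colon, which was then called higher, and to 0.81 for AC tumours against colon, which was not called. Colon then rests on 13 and 6 counts of Timd4 in sham 2 and sham 3, against 175 in sham 1. B cell transcripts were high in the same library: Cd79a, a part of the B cell receptor, was at 131 CPM in sham 1, against 24.0 and 9.27 CPM in sham 2 and sham 3. The part of the lymphoid content of sham 1 in its Timd4 level was not tested.

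**Figure D2:**
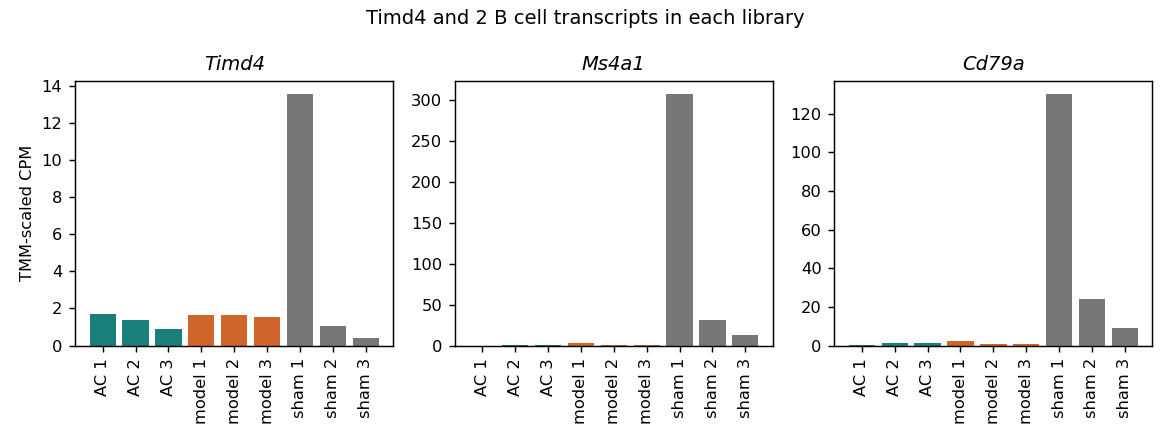
TMM-scaled CPM of Timd4 and of the B cell transcripts Ms4a1 and Cd79a, with 1 bar for each of the 9 libraries on linear axes from 0. All 3 transcripts were highest in sham 1, at 13.6, 308 and 131 CPM.

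Against colon, most of the receptors were called in both tumour groups. The fit covered all genes that passed the filter on low counts, with a threshold of 0.05 on edgeR's Benjamini-Hochberg adjusted p. In AC tumours against colon, 7 of the 8 members tested were called higher, where 35.5% of all 17832 genes tested were higher and 32.7% lower. In model tumours against colon, 7 of 8 were again called higher, where 36.8% of 18228 genes were higher and 32.9% lower. No member was called lower in either by edgeR or DESeq2, and none of those with a negative difference had an unadjusted p under 0.05. Timd4 was the member not called in either, and Marco was not tested. Since the members were chosen with these comparisons known, nothing is read from those counts, and the comparisons share the 3 colon libraries. Cd163 and Folr2 passed the filter through their tumour libraries. The median log2 difference of the tested members was 5.20 for AC tumours against colon, beside 0.10 for all genes tested, and 4.76 for model tumours against colon, beside 0.12. The 3 libraries did not overlap for 7 of 8 members in AC tumours against colon, all above it. Of all genes tested, 40.5% lay wholly above colon and 35.3% wholly below. In model tumours against colon 6 of 8 did not overlap, all above it, where 41.3% of all genes lay wholly above and 35.6% wholly below. Lyve1 was the member that overlapped there and not in AC tumours, since model 1 lay within the range of colon. In bulk tissue, more macrophages and more RNA of a gene per macrophage cannot be told apart, and tumour and colon also differ in every other cell type they hold.

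**Figure D3:**
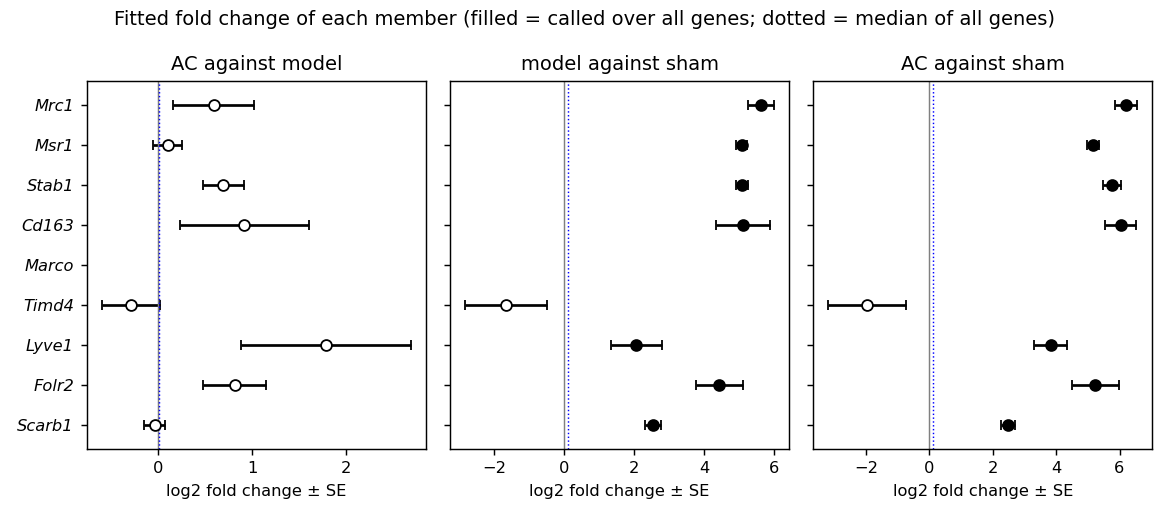
Fitted log2 fold change of each tested receptor with its SE as a bar, for AC against model tumours, model tumours against sham colon and AC tumours against sham colon. Filled symbols were called over all genes at an adjusted p under 0.05, and the dotted line is the median of all genes tested. No symbol is filled for AC against model tumours, and 7 of 8 are filled in each comparison with colon, all but Timd4.

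The call for Lyve1 in model tumours against colon was the least firm of these. It held in 6 of 13 alternative fits and was lost without model 2, model 3, sham 1, sham 2 or sham 3, each left out alone, with DESeq2's size factors and with no filter. The other 6 called members were called in all 13 alternative fits of that comparison, and all 7 were called in all 13 of AC tumours against colon. Without scaling factors the median of all genes moved by 0.61 in model tumours against colon and by 0.65 in AC tumours against colon, and the differences of the members moved up with it.

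For the herb treatment itself, no receptor was called different between AC and model tumours. Of 17137 genes that passed the filter and were tested by edgeR, 0% were called higher and 0% lower at an adjusted p under 0.05, 2253 had an unadjusted p under 0.05, and the lowest adjusted p was 0.103. Of the 8 members tested, 0 were called and 2 had an unadjusted p under 0.05. With no filter on low counts edgeR called 105 genes, with no member among them. DESeq2 called 291 genes, Stab1 being the member among them. Without AC 3, edgeR called 569 genes, Stab1 again being the member among them. In 6 of 8 members the mean log2 difference was positive, and the median of the 8 was 0.64, beside 0.01 for all genes tested. Other receptors with scavenger function, a list outside the members, leaned the other way. The median of its 18 tested genes was -0.31. By edgeR, 6 of the 18 were lower in AC tumours at an unadjusted p under 0.05 and 0 were higher, and none was called. No member separated the groups, whereas 9.06% of all genes had every AC library above every model library, and 9.98% had every AC library below.

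The libraries within a group spread widely for part of the receptors. AC 1 was the highest tumour for Mrc1, Msr1, Stab1, Cd163, Timd4, Lyve1 and Folr2, and model 1 was the lowest for Mrc1, Cd163, Lyve1 and Folr2. Between the highest and the lowest tumour, Mrc1 differed 3.80-fold, Cd163 6.15-fold, Folr2 3.32-fold, Stab1 2.10-fold and Timd4 1.92-fold. Within AC tumours, AC 3 was the lowest for every member. Within model tumours, model 2 was the highest for Mrc1, Cd163, Lyve1, Folr2, Scarb1 and Marco and the lowest for Msr1 and Stab1. AC 3 and model 1 were also the 2 tumours with the most colonic epithelial transcripts: the summed level of the 9 markers of that list was 286, 267 and 893 CPM in AC tumours, 502, 225 and 190 CPM in model tumours, and 18460 to 26830 CPM in colon. The part of those transcripts in the receptor levels was not tested. With both tumours left out, an alternative chosen after seeing the data, the log2 difference of AC against model tumours was 0.53 for Mrc1, 0.23 for Msr1, 0.85 for Stab1, 0.78 for Cd163, 1.67 for Lyve1, 0.88 for Folr2, -0.05 for Timd4 and -0.01 for Scarb1. Stab1 was then called, as it was without AC 3 alone (0.91).

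**Figure D4:**
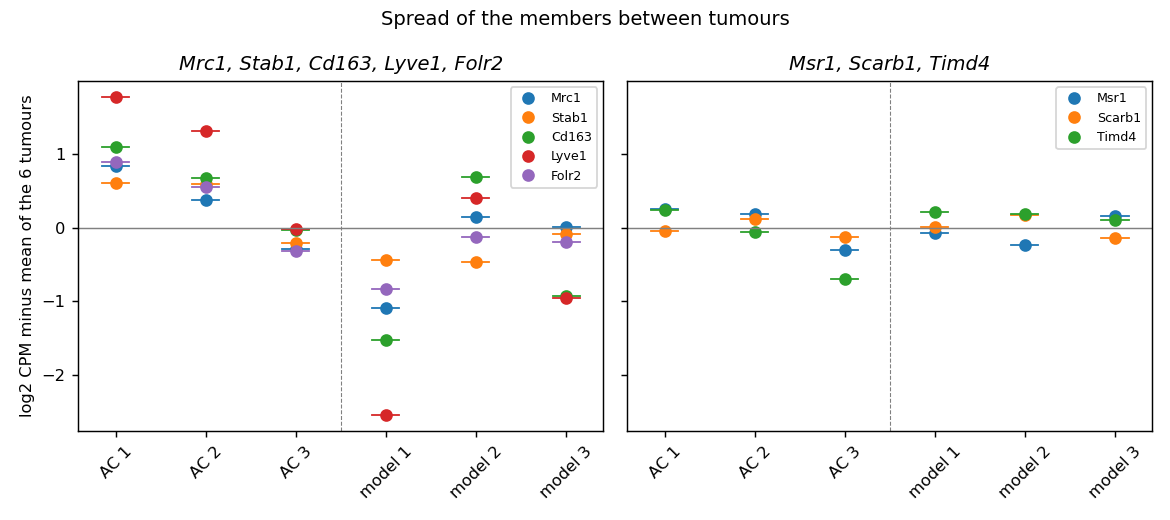
log2 CPM of each receptor in each of the 6 tumours minus its mean over the 6, for Mrc1, Stab1, Cd163, Lyve1 and Folr2 on the left and Msr1, Scarb1 and Timd4 on the right, with 1 symbol per tumour. AC 1 is high and model 1 low for Mrc1, Cd163, Lyve1 and Folr2, while Scarb1 spans 1.25-fold in all.

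Pan-macrophage transcripts overlapped between AC and model tumours, and by their mean log2 level all 6 tumours lay above colon. By their summed level sham 1, at 1274 CPM, lay above model 1 and model 2. That sum was 1843, 1790 and 1397 CPM in AC tumours and 1250, 1062 and 1592 CPM in model tumours. Sham 2 and sham 3 had 654.5 and 597.9 CPM. The mean log2(CPM + 0.5) of 14 pan-macrophage genes was 6.00, 5.90 and 5.82 in AC tumours, 5.83, 5.55 and 6.05 in model tumours, and 4.16, 3.60 and 3.47 in colon. Model 2, with the lowest value of the tumours, was the model tumour with the most Mrc1, Cd163 and Lyve1. Set against that mean in the same library, Mrc1 stood 2.65 ± 0.476 above it in AC tumours, 2.13 ± 0.762 above it in model tumours and at -1.21 ± 0.513 in colon (log2 units, SD, n = 3 each). Stab1 stood at 1.96 ± 0.392 in AC tumours, 1.39 ± 0.130 in model tumours and -1.46 ± 0.528 in colon. Msr1 stood at 1.42 ± 0.227 in AC tumours, 1.43 ± 0.0681 in model tumours and -1.41 ± 0.335 in colon. These 3 receptors were thus above the mean of the list in every tumour and below it in every colon library. CPM is not divided by gene length, so whether a receptor stands above or below the list depends on length too. Only differences between libraries for the same receptor are free of it. The size of the difference depended on the reference. For model tumours minus colon it was 3.33 for Mrc1, 2.85 for Stab1 and 2.835 for Msr1. With Csf1r alone in place of the list it was 2.68, 2.20 and 2.18. Within the list, 10 of 14 genes rose and 2 fell in model tumours against colon, with a median log2 difference of 2.68. The 2 that fell, Mertk and Cd14, raise the mean of the list in colon. Adgre1 and Fcgr1, among those that rose, had 4.46 and 4.33, beside 5.62 for Mrc1, 5.09 for Stab1 and 5.07 for Msr1. The part of macrophage content in the difference was not tested. Cd163 stood at -0.65 ± 0.475 in AC tumours, -1.69 ± 1.32 in model tumours and -3.66 ± 0.724 in colon, so that it was below the list in every library. Its mean was closest to the list in AC tumours, but the single library closest to it was model 2, at -0.18.

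Lyve1 stood at -0.42 ± 0.835 in AC tumours, -2.32 ± 1.55 in model tumours and -1.80 ± 0.895 in colon, and all 3 groups overlapped. Scarb1 stood at -0.07 ± 0.135 in AC tumours, 0.06 ± 0.410 in model tumours and -0.35 ± 0.714 in colon, and all 3 groups overlapped. With Csf1r alone in place of the list, the difference of Scarb1 turned to -0.27 for AC tumours minus colon and to -0.24 for model tumours minus colon. Folr2 stood at -3.29 ± 0.486 in AC tumours, -3.88 ± 0.451 in model tumours and -4.39 ± 0.692 in colon. Its difference between AC tumours and colon was 1.11, and came to 0.56 against Csf1r alone and to 2.48 with a pseudocount of 0.1. Between model tumours and colon it was 0.51, and came to -0.14 against Csf1r alone and to 1.83 with a pseudocount of 0.1. Timd4 was lower relative to the list in tumours, at -5.06 ± 0.253 in AC tumours and -4.73 ± 0.279 in model tumours, against -2.30 ± 1.72 in colon. Marco, at -6.43 ± 0.318 in AC tumours, -5.84 ± 0.495 in model tumours and -4.60 ± 0.308 in colon, had counts so low that the pseudocount sets much of its value.

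**Figure D5:**
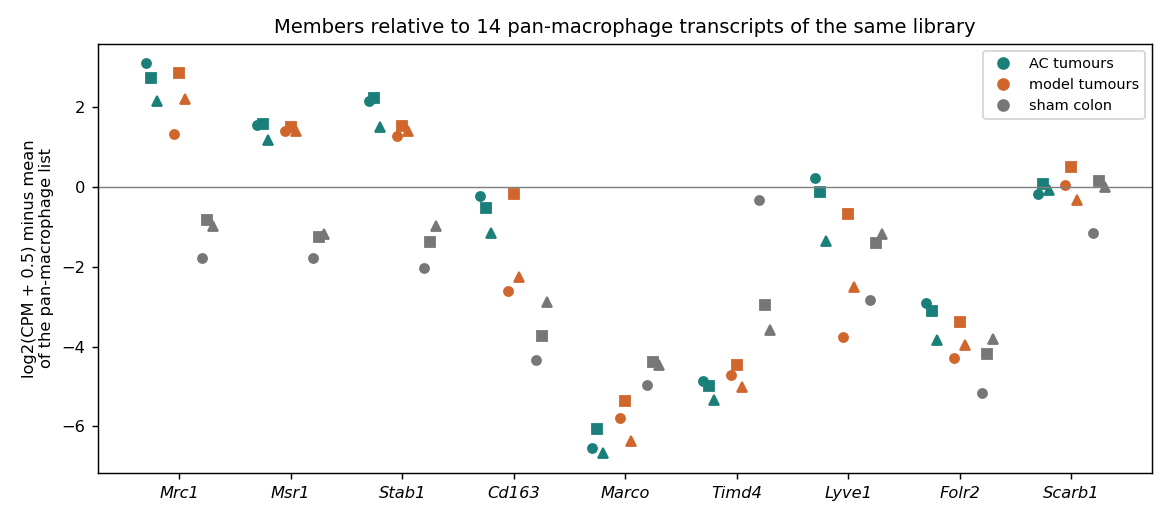
log2(CPM + 0.5) of each receptor minus the mean of 14 pan-macrophage genes in the same library, with 1 symbol per library (circle, square and triangle for replicates 1, 2 and 3) and colour for AC tumours, model tumours and sham colon. Mrc1, Msr1 and Stab1 lie above 0 in all 6 tumours and below 0 in all 3 colon libraries, and the groups overlap for Scarb1. CPM is not divided by gene length, so heights compare libraries for the same receptor and not receptors with each other.

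Other receptors with scavenger function moved both ways. Of 21 such genes outside the members, 9 of 17 tested rose and 3 fell in AC tumours against colon, and 9 of 18 rose and 3 fell in model tumours against colon. These counts, and those of the lists below, stand beside the shares of all genes tested. In AC tumours against colon 35.5% of all genes were higher and 32.7% lower. In model tumours against colon 36.8% were higher and 32.9% lower. Scara5, a ferritin receptor, averaged 75.1 ± 12.4 CPM in AC tumours, 97.5 ± 11.4 CPM in model tumours and 0.428 ± 0.270 CPM in colon (SD, n = 3 each). Its edgeR adjusted p was 5.23e-05 in AC tumours and 2.72e-05 in model tumours. Mrc2, a collagen receptor related to Mrc1, averaged 33.8 ± 18.9 CPM in AC tumours, 70.6 ± 17.0 CPM in model tumours and 1.57 ± 0.432 CPM in colon, and its adjusted p by edgeR was 4.51e-04 in AC tumours and 3.40e-05 in model tumours. Cd68 rose as well, to 59.3 ± 8.28 CPM in AC tumours, against 10.5 ± 1.66 CPM in colon (edgeR adjusted p = 7.95e-05). Among those that fell, the lysosomal membrane protein Scarb2, of the same family as Scarb1, averaged 102 ± 1.70 CPM in AC tumours, 109.5 ± 8.95 CPM in model tumours and 332 ± 21.6 CPM in colon. Its adjusted p by edgeR was 7.50e-05 in AC tumours and 1.29e-04 in model tumours.

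Pan-macrophage genes rose against colon in 10 of 14 and fell in 2, in AC tumours and in model tumours alike. Adgre1, which encodes F4/80, averaged 42.1 ± 9.68 CPM in AC tumours, 48.0 ± 7.84 CPM in model tumours and 2.19 ± 0.327 CPM in colon. Its edgeR adjusted p was 7.08e-05 in AC tumours and 2.55e-05 in model tumours. Mertk, a receptor for dying cells, was one of the 2 that fell, averaging 25.3 ± 6.34 CPM in AC tumours, 34.2 ± 4.60 CPM in model tumours and 168 ± 19.9 CPM in colon, with an edgeR adjusted p of 1.41e-04 in AC tumours and 6.88e-05 in model tumours. Of 13 genes of alternative activation and tumour macrophages, 8 of 12 tested rose in each tumour group against colon. Spp1, osteopontin, was the most abundant of those named, at 3445 ± 537 CPM in AC tumours, 3580 ± 781 CPM in model tumours and 2.02 ± 0.340 CPM in colon (edgeR adjusted p = 2.16e-05 in AC tumours and 1.44e-05 in model tumours).

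Genes that work beside single members gave mixed counts. In haem and iron handling, the pathway downstream of Cd163, 6 of 11 rose and 3 fell in each tumour group against colon. The haem oxygenase Hmox1 averaged 126 ± 61.9 CPM in AC tumours, 135 ± 13.9 CPM in model tumours and 4.64 ± 1.52 CPM in colon, with an edgeR adjusted p of 2.98e-04 in AC tumours and 3.68e-05 in model tumours. The iron exporter Slc40a1 fell, to 5.83 ± 3.39 CPM in AC tumours and 4.03 ± 0.665 CPM in model tumours, against 180.4 ± 67.0 CPM in colon (edgeR adjusted p = 4.43e-04 and 5.14e-05). In apoptotic cell clearance, to which Timd4 belongs, 4 of 13 rose and 5 fell in AC tumours, and 4 rose and 4 fell in model tumours. The median log2 difference of that list was -0.30 in AC tumours and 0.11 in model tumours, beside 0.10 and 0.12 for all genes. Axl rose to 864 ± 55.1 CPM in AC tumours and 894 ± 48.9 CPM in model tumours, against 16.1 ± 3.59 CPM in colon (edgeR adjusted p = 2.83e-05 and 1.95e-05). In lipoprotein handling and cholesterol efflux, beside Scarb1 and Msr1, 5 of 11 rose and 3 fell in AC tumours, and 6 rose and 3 fell in model tumours.

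Macrophage growth factors and cytokine receptors rose in 6 of 8 tested in AC tumours and in 7 of 8 in model tumours. Csf1, the growth factor that macrophages need, averaged 165 ± 50.02 CPM in AC tumours, 167 ± 7.40 CPM in model tumours and 5.02 ± 1.92 CPM in colon, with an edgeR adjusted p of 1.13e-04 in AC tumours and 4.18e-05 in model tumours. Of 13 macrophage transcription factors tested, 3 rose and 6 fell in each tumour group. Spi1, which encodes PU.1, averaged 17.2 ± 2.63 CPM in AC tumours, 14 ± 1.74 CPM in model tumours and 3.86 ± 2.52 CPM in colon (edgeR adjusted p = 0.00713 and 0.0113), and Klf4, which epithelium also makes, fell. Of 12 genes of lysosome and endocytosis, 3 rose and 4 fell in each. Their median log2 difference was 0.06 in AC tumours and 0.0007 in model tumours, beside 0.10 and 0.12 for all genes. The cysteine protease Ctsl averaged 1438 ± 187 CPM in AC tumours, 1424 ± 15.7 CPM in model tumours and 174 ± 16.7 CPM in colon, with an edgeR adjusted p of 5.18e-05 in AC tumours and 2.86e-05 in model tumours.

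Markers of the other cell types moved with tissue. Of the 6 lymphatic endothelial markers, 5 were tested: Pdpn rose and Prox1, Reln and Mmrn1 fell in both tumour groups, and Flt4 rose in model tumours against colon and was not called in AC tumours against colon, a difference that was not itself called. Their summed level was 55.9 to 76.1 CPM in AC tumours, 60.1 to 85.9 CPM in model tumours and 8.40 to 17.8 CPM in colon, nearly all of the tumour level being Pdpn, at 65.2 ± 10.8 CPM in AC tumours and 69.0 ± 13.1 CPM in model tumours, which cells other than endothelium also make. Vascular endothelial markers rose in 5 of 7, with sums of 114 to 152 CPM in AC tumours, 136 to 149 CPM in model tumours and 39.9 to 45.4 CPM in colon. Markers of colonic epithelium fell in 8 of 9, of smooth muscle in 5 of 5 and of B cells in 4 of 4, in each tumour group. Fibroblast markers rose in 3 of 5 in AC tumours and 4 of 5 in model tumours, neutrophil markers in 3 of 3 tested and conventional dendritic cell markers in 2 of 4 tested in both. In the lists of alternative activation, growth factors, vascular endothelium, fibroblasts and neutrophils, 0 genes fell in either tumour group by edgeR or DESeq2, and 0 had an unadjusted p under 0.05 in that direction. The part of these cell types in the receptor levels was not tested. Between AC and model tumours edgeR called none of 149 tested genes of these lists, 21 had an unadjusted p under 0.05, DESeq2 called 3, which were Lyz2, Gas6 and Col1a1, and the lowest edgeR adjusted p was 0.127, for Gas6.

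The transcripts most like each receptor across the 9 libraries were sought among 13640 other genes, by the root-mean-square difference of log2(CPM + 0.5) profiles after centring. For Msr1 the closest was Trem2, a lipid receptor of macrophages, at 0.126 log2 units, with 18.2, 16.6 and 13.1 CPM in AC tumours, 13.0, 12.0 and 15.6 CPM in model tumours, and at most 0.0801 CPM in colon. Phlda3 and Shox2 came next for Msr1, each at 0.192. Stab1 was closest to Fcna, the gene of ficolin A, at 0.252, with 36.0, 41.2 and 22.3 CPM in AC tumours, 17.4, 21.3 and 19.3 CPM in model tumours, and at most 0.467 CPM in colon. Mrc1 was closest to Ppef1 at 0.276, and Dpep2 was among the 3 closest to both Mrc1 and Stab1. Cd163 was closest to Sh2d5 at 0.389 and then to Cldn9 at 0.480. Pf4, the chemokine platelet factor 4, was the third for Cd163, at 0.515. Pf4 measured 40.6, 34.4 and 16.7 CPM in AC tumours, 11.9, 30.5 and 17.8 CPM in model tumours, and 0.920 to 1.12 CPM in colon. As for Cd163, AC 1 was the highest tumour for Pf4 and model 1 the lowest. AC 2 and model 2 followed AC 1 for both genes, with AC 2 above model 2 for Pf4 and below it for Cd163. AC 3 was above model 3 for Cd163 and below it for Pf4. Lyve1 had no close match: its nearest was Padi1 at 0.671. Scarb1 had the closest, Nfix at 0.0967. Folr2 was nearest to Papolb at 0.200, and Timd4 to Ikzf1, a lymphoid transcription factor that also stood out in sham 1, at 0.195. Next for Timd4 were Cwc22 at 0.280 and Cxcr4 at 0.302. Cwc22 also stood out in sham 1, with 372, 35.2 and 16.7 CPM in sham 1 to 3. For the members other than Timd4 and Lyve1, the profiles are dominated by the difference between tumour and colon, and for Timd4 by sham 1. The Lyve1 profile also holds its 20.1-fold spread between tumours. Trem2, Shox2, Fcna, Ppef1, Dpep2, Sh2d5, Cldn9, Padi1 and Papolb were below the pseudocount of 0.5 CPM in every colon library. The pseudocount therefore sets much of their difference between tumour and colon, and a small distance does not mean an equal fold change.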

How the data were processed

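Per the submitters' processing notes, the authors made the deposited raw read counts per gene with featureCounts 1.5.0-p3 and build mm9. A second table from the authors gives FPKM, which matched the counts divided by gene length and library total. Aligner, read length and strand setting: not given in the sources used here. Per the labels' protocols, Trizol and the VAHTS Universal V6 kit were used on total RNA. Among 22279 genes of 20 counts or more, 96.8% had an implied length within 1% of their GENCODE M21 exon sum, so symbols and coordinates are those of M21 (GRCm38). No pair of libraries was identical. Chi-square per degree of freedom within groups was 3.06 to 119.

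Comparisons were fitted separately, on 6 libraries at a time, by edgeR 4.0.16 under R 4.3.3 (TMM, filterByExpr defaults, robust glmQLFit, glmQLFTest, Benjamini-Hochberg adjustment over all genes tested, threshold 0.05). DESeq2 1.42.0 was an alternative, with other scalings, no filter, all 9 libraries in 1 fit, a replicate block, libraries left out and log2(FPKM + 0.1). Fold changes are log2. The steps were also run on simulated data, and the outcome is not reported here. A floor of 3 counts was 0.128 to 0.191 CPM before and 0.112 to 0.240 CPM after TMM scaling. Intervals and floors cover counting error only, since the reads have no molecular identifiers.

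The members and the 18 gene lists (170 genes, 168 matched) were chosen with earlier results of these data known. The counts of 1 list are not reported here. Up to 3 called genes with the smallest adjusted p per list and comparison were to be named, with the 3 genes most like each member that reached 1 CPM in a group. The text uses part of them, and list genes outside that rule, such as Spi1, Epcam and Ccl21a, were chosen after their values were seen.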

Additional observations from a re-analysis of the deposited data

How the results depend on the processing

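For AC against model tumours, edgeR called 0 genes, but 105 with no filter on low counts, 94 without model 1 and AC 3 together, and 0 to 569 with 1 library left out, the 569 being without AC 3. DESeq2 called 291 genes. The count of members called higher in that comparison was 1 by DESeq2 and 1 without model 1 and AC 3 together, and 0 to 1 with 1 library left out, the 1 being Stab1 without AC 3. The cause was not tested. Left out 1 at a time, libraries gave 11677 to 15339 genes called for model tumours against colon (12697 with all), and 10899 to 14360 for AC tumours against colon (12165 with all), the highest being without sham 1 in both. Members called higher were 6 to 8 for model tumours against colon, 6 without model 2, where Lyve1 was lost, and 8 without sham 1, where Lyve1 was lost and Timd4 and Marco, which then passed the filter, were called, and 7 to 7 for AC tumours against colon.

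Without scaling factors 67.3% of calls in model tumours against colon and 68.2% in AC tumours against colon were higher, against 52.8% and 52.1% with TMM. From log2(FPKM + 0.1), the difference of Timd4 was 0.23 for model tumours minus colon and -0.04 for AC tumours minus colon. Over all alternatives, 1385 counts of called list genes were equal to the main count or within 1.5 times of it, 27 were larger and 28 smaller. For AC against model tumours every main count was 0, so the equal counts include 0 against 0.

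The replicate numbers did not pair the samples: same-numbered AC and model tumours had correlations of deviations of -0.528, 0.435 and -0.312. With the replicate block, 0 genes were called for AC against model tumours, 11774 for model tumours against colon and 11303 for AC tumours against colon, and 0, 7 and 7 members. Depth limits Marco, Folr2 in colon and Cd163 in colon, where counts per library were at most 14. It also limits Timd4 in sham 2 and sham 3, with 13 and 6 counts.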
